A study of Homo sapiens with 12 samples.

Results

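Nuclear receptors are transcription factors that bind small lipophilic ligands such as hormones, vitamins, bile acids and fatty acids, and orphan members are named for having no settled ligand. Most carry a zinc-finger domain that reads the hexamer AGGTCA or a close variant, singly or as a repeat, and many bind DNA as a pair with a retinoid X receptor. In the intestine they are known for tuning lipid absorption, drug oxidation and differentiation, and the vitamin D receptor, which is not among the genes described here, is itself a partner of the retinoid X receptors. The 43 genes below are all of a fixed list of nuclear receptors other than the vitamin D receptor, chosen by symbol, and each matched 1 row among the 58735 genes of the deposited table. These members and the gene lists used below were chosen with earlier results of these data known. Their shares beside those of all genes are therefore descriptions.

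RNA was sequenced from enterocytes, the absorptive cells of the gut lining, that had been obtained by differentiating RPChiPS771, 1 line of human induced pluripotent stem cells. The cultures were treated from day 15 to day 23 in a medium that the labels call M3: with 1 µM vitamin D3 (VD3), with 100 µM valproic acid (VPA), with both compounds at those doses (VD3VPA), or with neither (Control). Each group had 3 libraries, 12 in all, and the labels do not say whether these came from separate cultures, so every p-value measures only the spread between libraries, which may be technical. VPA is known as an inhibitor of histone deacetylases, and the series asked how both compounds act on differentiation.

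Depth ranged from 32160289 to 43998467 gene-assigned fragments a library, recovered from the deposited table. Levels are FPKM, fragments per kilobase of a gene's exons divided by a scale per library, given as mean ± SD over 3 libraries. That scale was not the library's own total but a size factor, and it came to 94.8% to 108% of the total. A fold is the quotient of 2 group means in FPKM. Log2 changes are on the log2(FPKM + 1) scale, with a standard error (SE), and understate the change of genes at low levels. Each library pools many cells, so fewer cells of a type and less RNA per cell cannot be told apart. The enterocyte label was checked against markers: CDX2 and VIL1 averaged 54.7 and 110 FPKM with VD3, against 49.6 and 132 FPKM in Control. Of 14 tested enterocyte markers, 7 were higher and 4 lower with VD3, 7 and 1 with VPA, and 5 and 5 with VD3VPA. In that order, 78.6%, 57.1% and 71.4% of them differed from Control, against 62.5%, 52.7% and 64.2% of all genes tested. The brush border enzymes alkaline phosphatase (ALPI) and lactase (LCT) averaged 218 and 93.3 FPKM with VD3, against 9.87 and 4.64 FPKM in Control, whereas sucrase-isomaltase (SI) averaged 0.231 FPKM with VD3 and 1.15 in Control. AFP, a marker of fetal liver, averaged 22931 FPKM with VD3, 30636 with VPA, 22799 with VD3VPA and 26953 in Control, so RNA of this marker was abundant in every group. Of 9 tested hepatocyte markers, 3 were higher and 3 lower with VD3, 2 and 5 with VPA, and 3 and 4 with VD3VPA. In that order, 66.7%, 77.8% and 77.8% of them differed from Control, against 62.5%, 52.7% and 64.2% of all genes tested. ALB averaged 509 FPKM with VPA and 1500 in Control. CPS1 and SERPINA1 went the other way, at 114 and 2830 FPKM with VPA, against 69.2 and 1707 in Control. The 11 hepatocyte markers were not alike, since TAT and CYP2E1 averaged at most 0.289 and 0.04 FPKM in any group.

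Of the 43 genes, 27 reached 1 FPKM in at least 3 libraries and were tested, and 16 did not. In Control, 6 averaged above 10 FPKM, 18 lay between 1 and 10 FPKM and 19 lay below 1 FPKM. The order in Control began with NR2F6, at 51.0 ± 3.15 FPKM, HNF4A at 46.1 ± 1.21, ESRRA at 44.4 ± 3.95, NR1H3 at 21.4 ± 1.13, NR1H2 at 13.4 ± 0.515 and RXRA at 12.3 ± 0.221 (SD, n = 3 each). HNF4A and ESRRA overlapped in Control, as did 22 of the 42 neighbouring pairs in that order, most of them among the low genes. A total of 20 members were at or above 1 FPKM in all 12 libraries. Among the other 7 tested, NR1I2 and RARG reached 1 FPKM in all libraries of Control alone and NR1I3 in those of VPA alone. NR6A1 reached it in those of VD3 and VD3VPA, NR4A1 in all treated ones and RARB in those of VPA and Control. NR2C1 reached it in all libraries of VD3, VD3VPA and Control. These 7 thus entered the test through the groups where they were high.

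**Figure D1:**
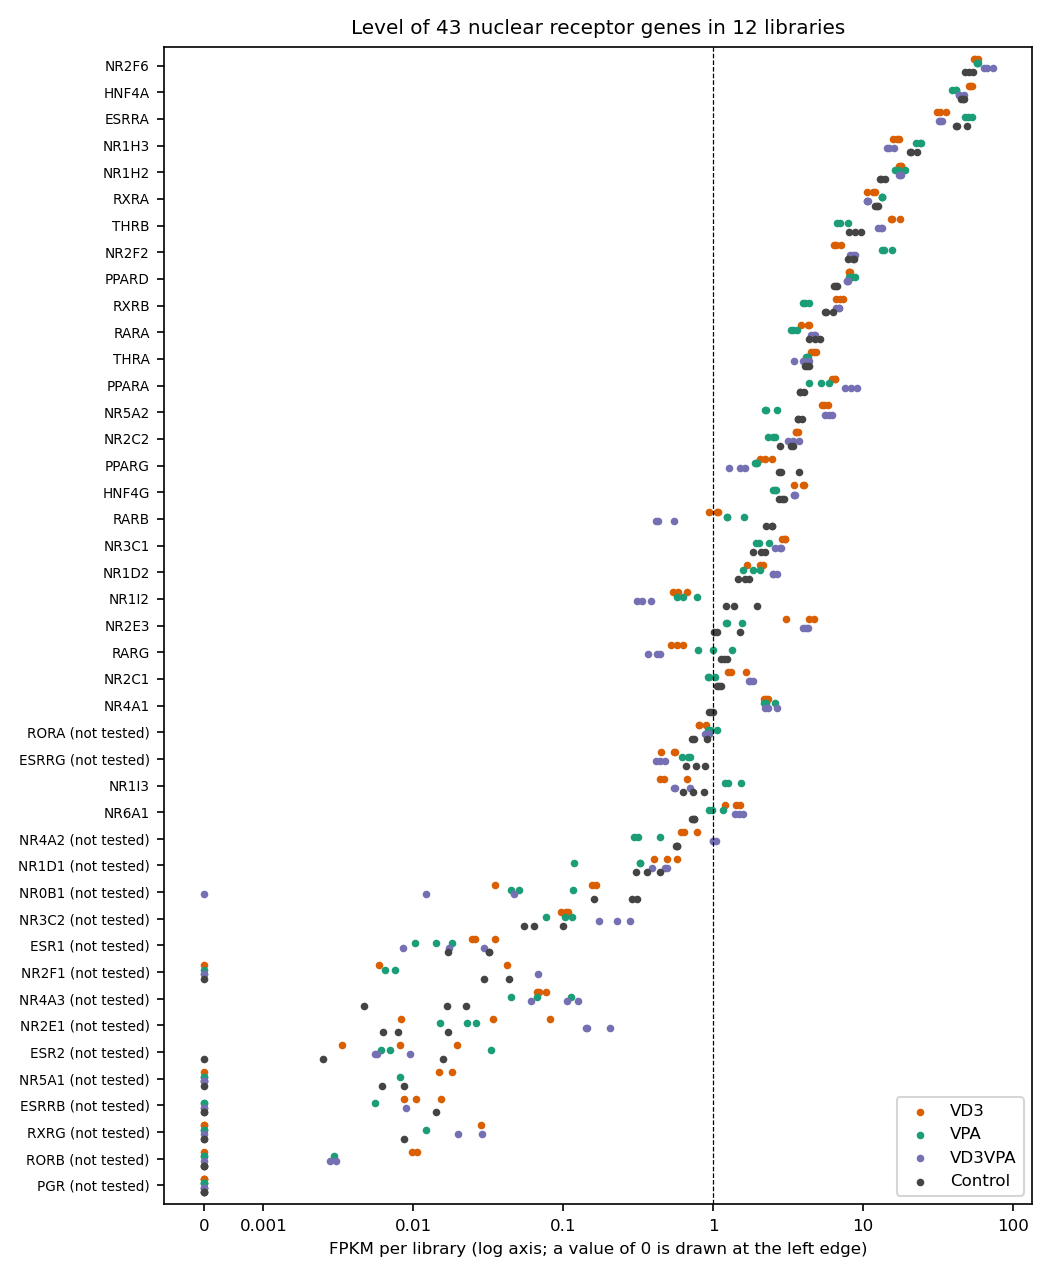
Level of the 43 nuclear receptor genes in FPKM on a log axis, with 1 point for each library and colours for VD3, VPA, VD3VPA and Control. The dashed line marks 1 FPKM, a value of 0 is drawn at the left edge, and genes run downwards by their mean in Control, from NR2F6 at 51.0 FPKM to PGR, which had 0 fragments in all libraries.

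With VD3, 22 of the 27 tested members differed from Control, 14 higher and 8 lower. The threshold was a p of 0.05 from limma after Benjamini-Hochberg correction over the 12578 genes tested. Of all genes tested, 62.5% passed in this comparison, 31.3% higher and 31.2% lower. With VPA, 17 passed, 8 higher and 9 lower, against 52.7% of all genes (29.6% higher and 23.1% lower). With VD3VPA against Control, 21 passed, 14 higher and 7 lower, against 64.2% of all genes (31.1% higher and 33.1% lower). Because a majority of all genes changed in these comparisons, which share the Control libraries, the counts alone do not set the receptors apart. The median log2 change of the 27 was 0.17 with VD3, 0.03 with VPA and 0.19 with VD3VPA, and that of all genes tested was 0.000366, 0.01 and -0.01. Those that passed and moved 2-fold or more numbered 5 with VD3, 2 with VPA and 8 with VD3VPA. The share of all genes at this fold was not counted, so these numbers do not set the receptors apart. Among them, RARB, RARG, NR1I2, NR4A1 and NR6A1 had entered the test through the groups where they were high. The split with VD3 depended on the scaling: with each library scaled to its own total, 11 members were higher and 10 lower. With VPA it was then 6 and 10, and with VD3VPA it stayed at 14 and 7. Over all genes, 3934 of 7863 that passed with VD3 were higher, and with own totals 3205 of 7937. Over all genes, 3719 of 6623 that passed with VPA were higher, and with own totals 2596 of 7149, or with equal FPKM sums 2930 of 6688.

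**Figure D2:**
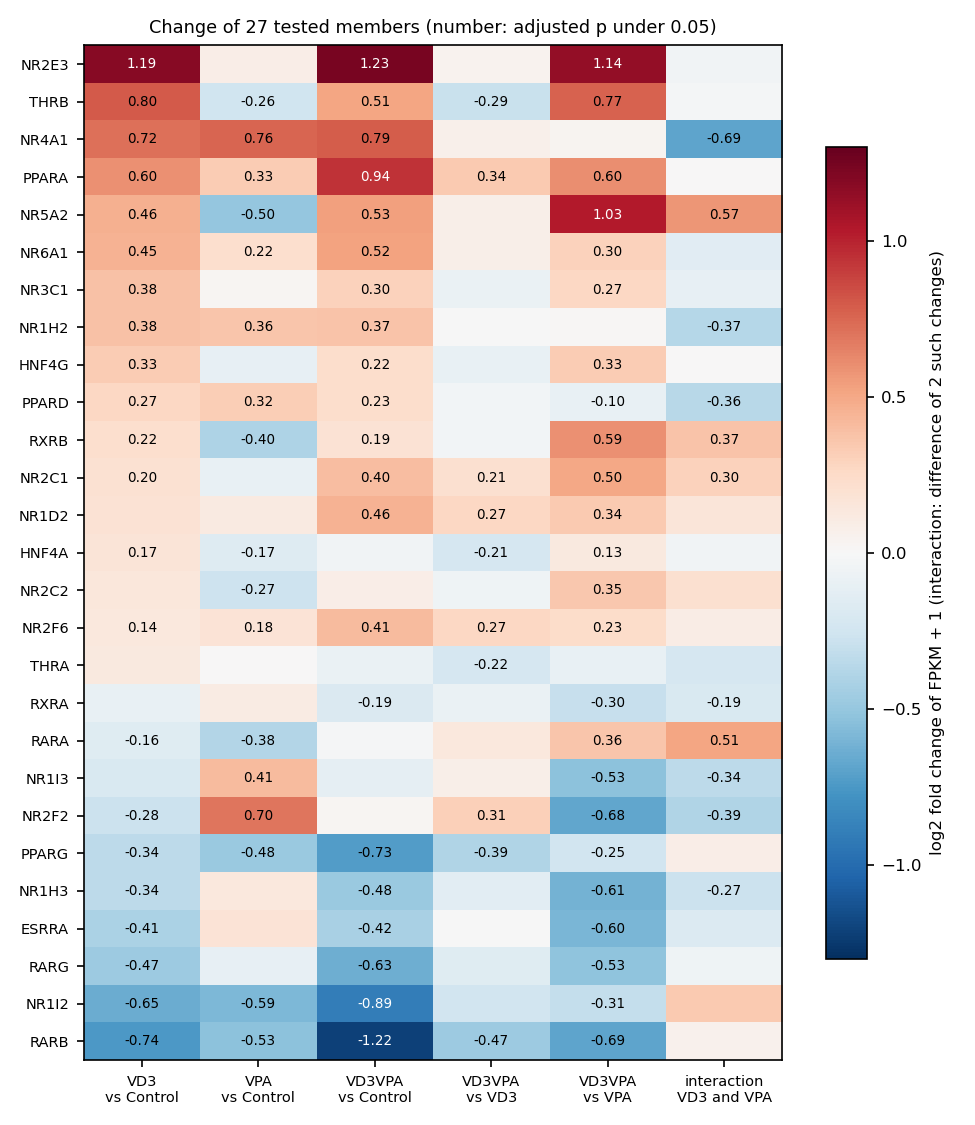
Log2 fold change of FPKM + 1 for the 27 tested members (down the page) in 5 comparisons and the interaction (across), as colour, with the value printed where the adjusted p was under 0.05. On this scale NR2E3 leads the rises with VD3 at 1.19 and RARB the falls at -0.74. Both keep their direction in VD3VPA against VPA, at 1.14 and -0.69. By the fold of mean FPKM, NR1I2 fell more with VD3 than RARB, 2.54-fold against 2.33-fold.

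Promoter sequences were shown for the members that changed and whose promoters hold the hexamer that this family reads. RefSeq promoters (250 bases before to 50 after each start, build GRCh38.p14) were available for 40 of the 43 members, 95 starts in all. AGGTCA on either strand was in 15 of these 95 (15.8%), against 13.8% of 35116 promoters of the same length. Direct repeats with 5 bases between the hexamers, on either strand, were searched with AGGTCA, with AGTTCA, with GGGTCA and with GGTTCA at each place, and were in 1 of the 95 and in 0.0883% of all promoters. That single repeat was in RARB, at chr3:25428170-25428262 on the plus strand, from 53 to 37 bases before the start, and the capitals mark its 2 hexamers.
RARB: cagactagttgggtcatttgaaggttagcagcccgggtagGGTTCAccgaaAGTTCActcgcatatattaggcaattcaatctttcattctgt

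Direct repeats of the same hexamers with 3 bases between them, the arrangement known for the vitamin D receptor, were in 0 of the 95 and in 0.074% of all promoters. Among the 25 tested members with a promoter, 5 held AGGTCA within the 250 bases before a start, namely NR1H3, NR5A2, PPARG, RARA and RARB. Windows around it are printed for them in gene direction, with the hexamer in capitals, in the order chr11:47248145-47248180, chr1:200027611-200027646, chr3:12287136-12287171, chr17:40308935-40308970 and chr3:25340735-25340770, all on the plus strand, the last at another RARB start. The gene-level table does not say which start was used, and a match describes letters, not binding.
NR1H3: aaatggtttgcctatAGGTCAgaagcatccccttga
NR5A2: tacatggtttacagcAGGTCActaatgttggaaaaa
PPARG: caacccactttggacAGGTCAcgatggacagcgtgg
RARA: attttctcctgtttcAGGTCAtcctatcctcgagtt
RARB: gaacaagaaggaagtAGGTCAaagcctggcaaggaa

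The retinoid X receptors are the shared partners of the vitamin D, retinoic acid, thyroid hormone, fatty acid, oxysterol and xenobiotic receptors. RXRA was at 11.7, 10.6 and 12.1 FPKM with VD3, at 13.3, 13.4 and 13.3 with VPA, at 10.8, 10.7 and 10.5 with VD3VPA and at 12.5, 12.1 and 12.5 in Control. The VD3VPA libraries lay below every Control library, and the fall was 1.15-fold (log2 -0.19, SE 0.044, limma adjusted p = 0.00269). With VD3 alone the change of -0.10 did not pass (adjusted p = 0.0672), but it did when libraries were scaled to equal FPKM sums, quantiles or their own totals, or without VD3 replicate 3.

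RXRB averaged 6.97 ± 0.382 FPKM with VD3, 4.16 ± 0.207 with VPA, 6.77 ± 0.178 with VD3VPA and 5.83 ± 0.376 in Control (n = 3 each). It rose with VD3 by 0.22 and fell with VPA by 0.40 on the log2 scale. The RXRB exons share 244 bases, 6.22% of their length, with SLC39A7, which lies on the other strand and averaged 76.0 FPKM with VD3, 67.8 with VPA, 78.3 with VD3VPA and 92.8 in Control. Since the library kit, as the labels describe it, has no step that marks strand, fragments from the shared bases cannot be assigned with certainty. RXRG had 10 fragments in the 12 libraries together, and its highest library stood at 0.0286 FPKM.

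The 3 retinoic acid receptors, which respond to the vitamin A derivative, were all lower with VD3. RARB (chr3:25174332-25597932, GRCh38), which is known as a retinoid-induced target as well as a receptor, was at 0.942, 1.06 and 1.08 FPKM with VD3, at 1.61, 1.23 and 1.24 with VPA, at 0.413, 0.431 and 0.547 with VD3VPA and at 2.46, 2.48 and 2.25 in Control. All 4 groups were separate, with Control highest and VD3VPA lowest. The fall was 2.33-fold with VD3 (log2 -0.74, SE 0.072, adjusted p = 4e-06), 1.76-fold with VPA (log2 -0.53, adjusted p = 9.94e-05) and 5.17-fold with VD3VPA (log2 -1.22, adjusted p = 6.38e-08, limma). The interaction was 0.06 (SE 0.102, adjusted p = 0.67), so the log2 change with both compounds was not distinguishable from the sum of the 2 single changes at this spread. Over 21 other settings this interaction ran from -0.33 to 0.15 and passed in none, so its sign depended on the setting.

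RARG was at 0.522, 0.573 and 0.633 FPKM with VD3, at 1.32, 0.796 and 0.999 with VPA, at 0.367, 0.441 and 0.42 with VD3VPA and at 1.24, 1.13 and 1.18 in Control. The VD3 and VD3VPA libraries lay below all others, whereas VPA overlapped Control. It fell 2.05-fold with VD3 (log2 -0.47, SE 0.086, adjusted p = 0.00055, limma) and 2.89-fold with VD3VPA (log2 -0.63, adjusted p = 5.2e-05). RARA averaged 4.17 ± 0.273 FPKM with VD3, 3.43 ± 0.168 with VPA, 4.67 ± 0.171 with VD3VPA and 4.76 ± 0.401 in Control (n = 3 each). It fell by 0.38 with VPA (adjusted p = 0.000274, limma). Its fall of 0.16 with VD3 (adjusted p = 0.0376) overlapped Control and was lost in 6 of 22 other settings, among them leaving out Control replicate 1 or 3 or VD3 replicate 1 or 2. An antisense gene, RARA-AS1, shares 556 bases (11.8%) of its exons and averaged 1.62 FPKM with VD3, 1.27 with VPA, 1.49 with VD3VPA and 1.09 in Control.

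Of 7 tested genes listed as retinoic acid receptor targets, 4 rose and 2 fell with VD3, 5 rose and 0 fell with VPA, and 5 rose and 1 fell with VD3VPA, so that 85.7%, 71.4% and 85.7% passed, against 62.5%, 52.7% and 64.2% of all genes tested. RARRES2, the gene of the adipokine chemerin, stood at 6.18 ± 0.82 FPKM with VD3, 5.29 ± 0.469 with VPA, 19.4 ± 0.669 with VD3VPA and 0.968 ± 0.25 in Control. RARRES1 and TGM2, a transglutaminase, averaged 43.9 and 26.8 FPKM with VD3, against 12.6 and 12.8 FPKM in Control. RARB, which fell with VD3, with VPA and with VD3VPA, was not in this list, so its falls are not in these counts. The median log2 change of the list was 0.67 with VD3, 0.59 with VPA and 0.49 with VD3VPA, against 0.000366, 0.01 and -0.01 for all genes.

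The peroxisome proliferator-activated receptors (PPARs) sense fatty acids. PPARA, known for driving fatty acid oxidation, was at 6.52, 6.16 and 6.45 FPKM with VD3, at 5.95, 4.35 and 5.21 with VPA, at 7.6, 9.07 and 8.33 with VD3VPA and at 3.81, 4.01 and 3.8 in Control. Every treated library lay above every Control library, and those of VD3VPA were the highest. The rise was 1.65-fold with VD3 (log2 0.60, SE 0.084, adjusted p = 7.44e-05), 1.34-fold with VPA (log2 0.33, adjusted p = 0.00596) and 2.15-fold with VD3VPA (log2 0.94, adjusted p = 1.72e-06, limma).

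PPARG, the receptor best known from fat cells, moved the other way. It was at 2.05, 2.46 and 2.23 FPKM with VD3, at 1.89, 1.94 and 1.97 with VPA, at 1.64, 1.28 and 1.51 with VD3VPA and at 2.77, 2.84 and 3.74 in Control. The fall was 1.39-fold, 1.61-fold and 2.11-fold in these treated groups against Control (log2 -0.34, -0.48 and -0.73, SE 0.088, adjusted p = 0.00589, 0.000789 and 2e-05, limma). PPARD, which is broadly expressed, averaged 8.09 ± 0.0556 FPKM with VD3, 8.45 ± 0.397 with VPA, 7.83 ± 0.0447 with VD3VPA and 6.56 ± 0.172 in Control (n = 3 each). It rose by 0.27, 0.32 and 0.23 on the log2 scale, so the combination gave no larger rise than either compound.

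Of 19 tested genes listed as PPAR targets, 7 rose and 6 fell with VD3, 11 rose and 5 fell with VPA, and 10 rose and 5 fell with VD3VPA, so that 68.4%, 84.2% and 78.9% passed, against 62.5%, 52.7% and 64.2% of all genes tested. The pantetheinase gene VNN1 stood at 12.9 ± 2.40 FPKM with VD3 and 5.98 ± 0.436 with VD3VPA, against 0.338 ± 0.133 in Control. PDK4, CREB3L3 and PLIN2 had the largest changes with VPA, by 2.21, 2.02 and 1.73 on the log2 scale.

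The thyroid hormone receptors differed from each other. THRB was at 15.2, 15.5 and 17.6 FPKM with VD3, at 7.9, 6.74 and 7.06 with VPA, at 12.6, 13.1 and 13.4 with VD3VPA and at 8.05, 8.86 and 9.65 in Control. The VD3 libraries were the highest, and those of VPA lay just below Control. THRB rose 1.82-fold with VD3 (log2 0.80, SE 0.073, adjusted p = 2.62e-06, limma) and fell 1.22-fold with VPA (log2 -0.26, adjusted p = 0.0114), and it was 1.80-fold higher in VD3VPA than in VPA. THRA averaged 4.70 ± 0.176 FPKM with VD3, 4.24 ± 0.069 with VPA, 3.92 ± 0.461 with VD3VPA and 4.22 ± 0.1 in Control, and no comparison with Control passed. Of 5 tested genes listed as thyroid hormone receptor targets, 1 rose and 1 fell with VD3, and 3 rose and 1 fell both with VPA and with VD3VPA, so that 40%, 80% and 80% passed, against 62.5%, 52.7% and 64.2% of all genes tested. The deiodinase DIO1, which activates thyroid hormone, averaged 27.6 ± 4.84 FPKM with VPA and 13.03 ± 1.60 in Control, and the malic enzyme gene ME1 averaged 19.7 ± 0.948 FPKM with VD3 and 37.3 ± 3.70 in Control.

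The liver X receptors sense oxysterols and control cholesterol export. NR1H3 averaged 16.7 ± 0.821 FPKM with VD3, 23.6 ± 0.927 with VPA, 15.1 ± 0.934 with VD3VPA and 21.4 ± 1.13 in Control (n = 3 each). It fell by 0.34 with VD3 and by 0.48 with VD3VPA on the log2 scale (adjusted p = 0.000284 and 1.62e-05, limma). It shares 189 exon bases (4.17%) with ACP2, which rose with all treatments, by 0.49 with VD3, 0.64 with VPA and 0.50 with VD3VPA. NR1H2 averaged 17.7 ± 0.367 FPKM with VD3, 17.5 ± 1.38 with VPA, 17.6 ± 0.369 with VD3VPA and 13.4 ± 0.515 in Control, a rise of 1.32-fold, 1.31-fold and 1.32-fold. Of 10 tested genes listed as liver X receptor targets, 8 rose and 2 fell with VD3, 7 rose and 2 fell with VPA, and 4 rose and 3 fell with VD3VPA, so that 100%, 90% and 70% passed, against 62.5%, 52.7% and 64.2% of all genes tested. The lipid transporter ABCA7 averaged 11.4 ± 1.13 FPKM with VD3, 10.1 ± 0.519 with VPA, 9.26 ± 0.156 with VD3VPA and 4.45 ± 0.223 in Control, whereas the acyltransferase LPCAT3 averaged 7.66 ± 0.101 with VD3 and 10.6 ± 0.175 FPKM in Control.

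The xenobiotic receptors NR1I2 (the pregnane X receptor, PXR) and NR1I3 (the constitutive androstane receptor, CAR) are known for inducing drug-oxidizing enzymes. NR1I2 was at 0.543, 0.664 and 0.581 FPKM with VD3, at 0.631, 0.57 and 0.784 with VPA, at 0.333, 0.31 and 0.386 with VD3VPA and at 1.38, 1.21 and 1.95 in Control. Every treated library lay below every Control library. The fall was 2.54-fold with VD3 (log2 -0.65, SE 0.099, adjusted p = 0.000152), 2.29-fold with VPA (log2 -0.59, adjusted p = 0.000451) and 4.42-fold with VD3VPA (log2 -0.89, adjusted p = 9.85e-06, limma). Without any 1 of the Control libraries NR1I2 no longer met the filter on low values.

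NR1I3 was at 0.668, 0.471 and 0.441 FPKM with VD3, at 1.2, 1.52 and 1.25 with VPA, at 0.702, 0.56 and 0.547 with VD3VPA and at 0.862, 0.633 and 0.737 in Control. The VPA libraries lay above all others, a rise of 1.78-fold over Control (log2 0.41, SE 0.085, adjusted p = 0.00172, limma). Without any 1 of the VPA libraries NR1I3 no longer met the filter on low values. NR1I3 shares 661 bases, 20% of its exons, with TOMM40L on the other strand, which averaged 4.30 ± 0.269 FPKM with VD3, 8.58 ± 0.439 with VPA, 4.89 ± 0.127 with VD3VPA and 5.79 ± 0.062 in Control. TOMM40L rose with VPA too, by 0.50 on the log2 scale, and its part in the NR1I3 values was not tested. The 15 tested genes listed as PXR and CAR targets had 11 higher and 1 lower with VD3, 4 higher and 4 lower with VPA, and 12 higher and 0 lower with VD3VPA, so that 80%, 53.3% and 80% passed, against 62.5%, 52.7% and 64.2% of all genes tested. CYP3A5, an enzyme of drug oxidation, averaged 86.4 ± 4.7 FPKM with VD3 and 116 ± 2.02 with VD3VPA, against 6.60 ± 0.178 in Control, while NR1I2 itself was lower in those groups. Some of these genes, CYP3A4 among them, are also known vitamin D receptor targets.

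NR1D2, a clock repressor of the REV-ERB pair, was at 2.14, 2.04 and 1.69 FPKM with VD3, at 2.04, 1.59 and 1.83 with VPA, at 2.51, 2.52 and 2.67 with VD3VPA and at 1.45, 1.73 and 1.62 in Control. The 3 VD3VPA libraries were the highest, and the rise over Control was 1.60-fold (log2 0.46, SE 0.075, adjusted p = 0.000222, limma). With VD3 alone it did not pass (log2 0.18, adjusted p = 0.0505). Its partner NR1D1 was not tested and averaged 0.489 FPKM with VD3, 0.256 with VPA, 0.454 with VD3VPA and 0.369 in Control, and it shares 263 bases (9.49% of its exons) with THRA on the other strand. RORA, an activator at the same clock sites, was not tested either and spanned 0.72 to 1.07 FPKM over the 12 libraries, while RORB had 10 fragments in all. Of 9 tested clock genes, 2 rose and 2 fell with VD3, 7 rose and 0 fell with VPA, and 4 rose and 4 fell with VD3VPA, so that 44.4%, 77.8% and 88.9% passed, against 62.5%, 52.7% and 64.2% of all genes tested. TEF, an output factor of the clock, averaged 2.95 ± 0.114 FPKM with VD3, 3.30 ± 0.296 with VPA, 4.20 ± 0.152 with VD3VPA and 2.03 ± 0.181 in Control.

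**Figure D3:**
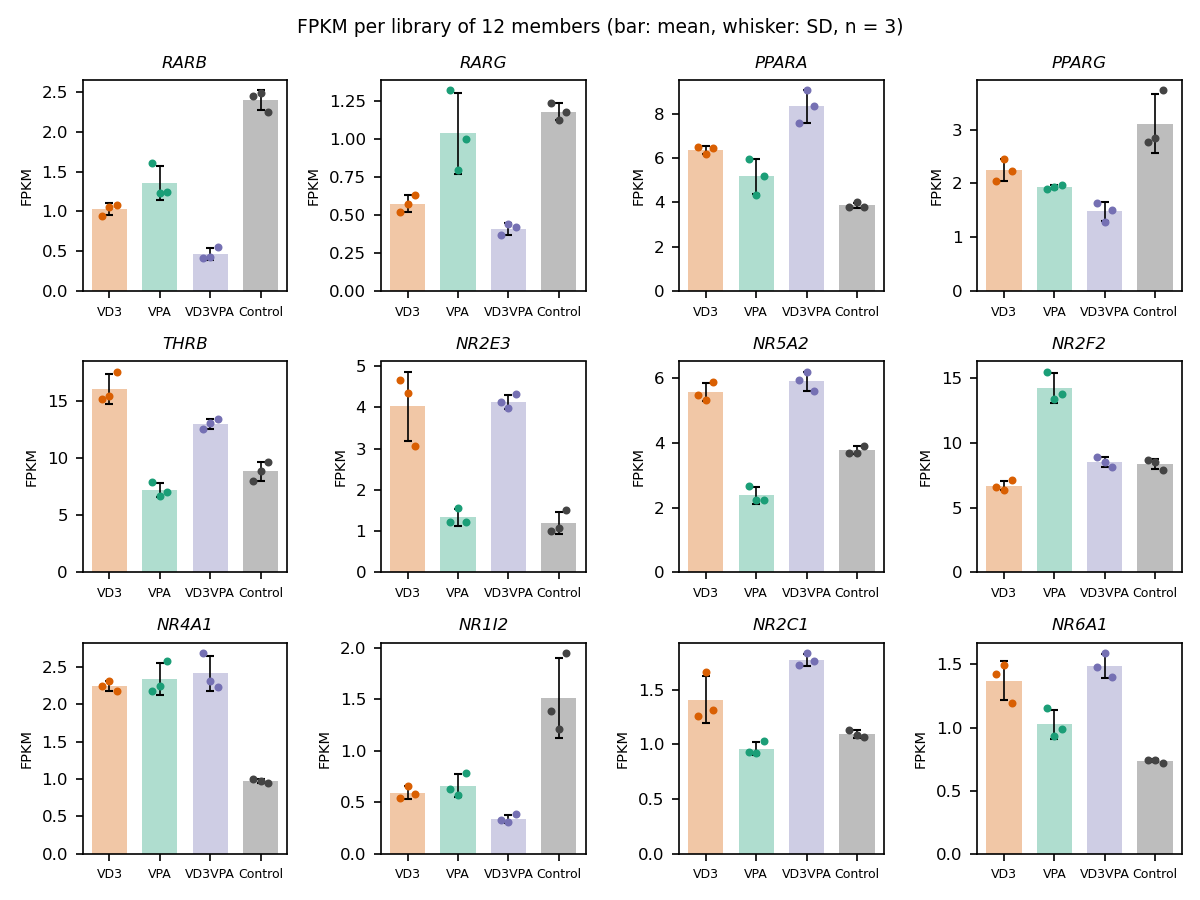
FPKM of 12 members in each library (points), with the group mean (bar) and SD (whisker, n = 3), for VD3, VPA, VD3VPA and Control. RARB and NR1I2 are lowest with VD3VPA at 0.464 and 0.343 FPKM, PPARA is highest there at 8.33 FPKM, and NR5A2 and NR2F2 stand apart with VPA at 2.38 and 14.2 FPKM.

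HNF4A, a regulator of enterocyte and hepatocyte genes, was at 51.9, 50.8 and 53.3 FPKM with VD3, at 41.8, 41.9 and 39.0 with VPA, at 46.9, 43.7 and 43.4 with VD3VPA and at 44.9, 46.1 and 47.4 in Control. The VD3 libraries lay above and those of VPA below all Control libraries, and VD3VPA overlapped Control. The changes were small: 1.13-fold higher with VD3 (log2 0.17, SE 0.045, adjusted p = 0.00626, limma) and 1.13-fold lower with VPA (log2 -0.17, adjusted p = 0.00758). The rise with VD3 reached an adjusted p of 0.0522 when libraries were scaled to their own totals, the highest of its 23 other settings. HNF4G, its close relative in the gut, averaged 3.83 ± 0.31 FPKM with VD3, 2.57 ± 0.045 with VPA, 3.49 ± 0.0295 with VD3VPA and 2.85 ± 0.111 in Control, and rose with VD3 and VD3VPA by 0.33 and 0.22 on the log2 scale. Of 16 tested genes listed as HNF4A targets, 6 rose and 5 fell with VD3, 7 rose and 6 fell with VPA, and 7 rose and 6 fell with VD3VPA, so that 68.8%, 81.2% and 81.2% passed, against 62.5%, 52.7% and 64.2% of all genes tested.

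NR2E3 (chr15:71792638-71818259), which is known as a photoreceptor-specific receptor of the retina, had the largest rise of the 27 with VD3. It was at 4.67, 4.34 and 3.08 FPKM with VD3, at 1.21, 1.56 and 1.23 with VPA, at 4.14, 3.98 and 4.31 with VD3VPA and at 1.02, 1.07 and 1.51 in Control. All 6 libraries with VD3 lay above all 6 without it. The rise was 3.37-fold with VD3 (log2 1.19, SE 0.120, adjusted p = 5.35e-06, limma) and 3.46-fold with VD3VPA (log2 1.23, adjusted p = 3.31e-06), and VPA alone did not pass (log2 0.09, adjusted p = 0.552).

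NR2F2 (COUP-TFII), which is known from mesenchyme and vein endothelium, was at 6.6, 6.39 and 7.11 FPKM with VD3, at 15.5, 13.4 and 13.8 with VPA, at 8.89, 8.55 and 8.11 with VD3VPA and at 8.72, 8.5 and 7.93 in Control. The VPA libraries stood apart above all others, and those of VD3 lay below all others. NR2F2 rose 1.70-fold with VPA (log2 0.70, SE 0.061, adjusted p = 3.43e-06, limma) and fell 1.25-fold with VD3 (log2 -0.28, adjusted p = 0.0016), and with VD3VPA it did not pass (log2 0.02, adjusted p = 0.778). Of 11 mesenchymal markers, 5 were tested, with 2 higher and 0 lower with VPA and with VD3, and 2 higher and 1 lower with VD3VPA. Thus 40%, 40% and 60% passed with VD3, VPA and VD3VPA, against 62.5%, 52.7% and 64.2% of all genes tested. The part of the 11 markers in the NR2F2 values was not tested. Their summed level ranged from 132 to 190 FPKM with VD3 and 138 to 167 with VPA. It ranged from 178 to 201 with VD3VPA and 61.0 to 68.3 in Control. SPARC made up most of that sum. With VPA, VIM averaged 10.2 FPKM, against 2.97 in Control, and the collagen genes COL1A1 and COL3A1 averaged 7.67 and 1.98 FPKM, against 6.56 and 2.61 in Control. LUM averaged 2.97 FPKM with VPA and 3.43 in Control, and PDGFRA and THY1 averaged at most 0.0369 and 0.0136 FPKM in any group. NR2F1 (COUP-TFI) was near silent, at 0 to 0.0678 FPKM.

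NR2F6, the most abundant member, averaged 56.4 ± 1.85 FPKM with VD3, 57.8 ± 0.295 with VPA, 68.3 ± 4.36 with VD3VPA and 51.0 ± 3.15 in Control (n = 3 each). It rose by 0.41 with VD3VPA on the log2 scale (adjusted p = 4.34e-05, limma). Its rises of 0.14 with VD3 and 0.18 with VPA (adjusted p = 0.0419 and 0.0175) were lost in 14 and 4 of the 23 other settings, among them scaling to equal FPKM sums (and, for both, leaving out Control replicate 2). NR2C1, an orphan testicular receptor, was at 1.26, 1.66 and 1.31 FPKM with VD3, at 0.933, 0.92 and 1.03 with VPA, at 1.73, 1.83 and 1.76 with VD3VPA and at 1.13, 1.09 and 1.07 in Control. All VD3VPA libraries were above all others, and the rise over Control was 1.62-fold (log2 0.40, SE 0.065, adjusted p = 0.000186). Its relative NR2C2 averaged 3.61 ± 0.0838 FPKM with VD3, 2.47 ± 0.12 with VPA, 3.43 ± 0.268 with VD3VPA and 3.17 ± 0.322 in Control, and fell by 0.27 with VPA. NR2C2 shares 1197 exon bases (10.1%) with MRPS25, which averaged 10.4 FPKM with VD3, 10.7 with VPA, 12.2 with VD3VPA and 14.0 in Control.

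NR2E1, known from neural stem cells, had 16 fragments with VD3, 8 with VPA, 67 with VD3VPA and 5 in Control, summed over 3 libraries. The fragment counts with VD3VPA were 26, 21 and 20, above those of all other libraries, which ranged from 1 to 10. It did not reach the filter on low values. In a fit with no such filter it was higher with VD3VPA than in Control (15.8-fold in mean FPKM, log2 0.20, SE 0.027, adjusted p = 0.000238, limma), at a mean of only 0.164 FPKM. One of 8 neural markers, TUBB3, was tested, and it averaged 1.47 FPKM with VD3, 0.279 with VPA, 1.65 with VD3VPA and 0.309 in Control.

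Among the estrogen-related receptors, which have no known natural steroid ligand and are known for mitochondrial genes, ESRRA averaged 33.0 ± 2.48 FPKM with VD3, 50.1 ± 2.57 with VPA, 32.8 ± 0.879 with VD3VPA and 44.4 ± 3.95 in Control (n = 3 each). It fell 1.34-fold with VD3 and 1.35-fold with VD3VPA (log2 -0.41 and -0.42, SE 0.069, adjusted p = 0.000263 and 0.000209, limma), and VPA did not pass (adjusted p = 0.0522). It shares 284 exon bases (9.37%) with TRMT112, which averaged 39.9 FPKM with VD3, 47.4 with VPA, 35.1 with VD3VPA and 41.3 in Control. ESRRG, which did not reach the filter, averaged 0.52 FPKM with VD3, 0.667 with VPA, 0.446 with VD3VPA and 0.771 in Control. It was lower with VD3 and VD3VPA in the fit with no filter (adjusted p = 0.0217 and 0.00413), and ESRRB had 14 fragments in all. Of 14 tested genes listed as targets of these receptors, ESRRA itself among them, 3 rose and 6 fell with VD3, 6 rose and 1 fell with VPA, and 3 rose and 5 fell with VD3VPA, so that 64.3%, 50% and 57.1% passed, against 62.5%, 52.7% and 64.2% of all genes tested. Cytochrome c (CYCS) averaged 24.4 ± 1.15 FPKM with VD3 and 22.0 ± 1.07 with VD3VPA, against 41.9 ± 4.91 in Control, and citrate synthase (CS) 16.0 ± 0.0529 with VD3, against 27.1 ± 1.36 in Control. COX5B, a subunit of cytochrome c oxidase, moved the other way, at 129 ± 5.19 FPKM with VD3VPA and 76.2 ± 8.72 in Control (log2 0.75, limma adjusted p = 6.39e-06).

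Of the steroid hormone receptors, only the glucocorticoid receptor NR3C1 was tested. NR3C1 was at 2.86, 3.03 and 3.00 FPKM with VD3, at 1.92, 2.02 and 2.36 with VPA, at 2.6, 2.8 and 2.83 with VD3VPA and at 1.85, 2.22 and 2.07 in Control. The 6 libraries with VD3 were above the 6 without it, and the rise was 1.45-fold with VD3 (log2 0.38, SE 0.062, adjusted p = 0.000248, limma) and 1.34-fold with VD3VPA (log2 0.30, adjusted p = 0.00132). Of 12 tested genes listed as glucocorticoid receptor targets, 7 rose and 1 fell with VD3, 9 rose and 0 fell with VPA, and 7 rose and 0 fell with VD3VPA, so that 66.7%, 75% and 58.3% passed, against 62.5%, 52.7% and 64.2% of all genes tested. SCNN1A, a subunit of the epithelial sodium channel, averaged 18.6 ± 2.65 FPKM with VD3, 14.4 ± 2.48 with VPA, 18.5 ± 1.34 with VD3VPA and 3.64 ± 0.710 in Control. The mineralocorticoid receptor NR3C2 was at 0.227, 0.28 and 0.173 FPKM with VD3VPA, above all other libraries, which spanned 0.0543 to 0.114 FPKM. In the fit with no filter it was 3.13-fold higher with VD3VPA than in Control (adjusted p = 0.00109, limma). The estrogen receptors ESR1 and ESR2 reached at most 0.0350 and 0.0331 FPKM in any library, and the progesterone receptor PGR had 0 fragments in all 12.

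The NR4A receptors are orphans known as immediate early genes. NR4A1 was at 2.24, 2.31 and 2.17 FPKM with VD3, at 2.18, 2.24 and 2.58 with VPA, at 2.68, 2.31 and 2.23 with VD3VPA and at 1.00, 0.97 and 0.941 in Control. The 9 treated libraries overlapped each other and all lay above Control. The rise was 2.31-fold with VD3, 2.40-fold with VPA and 2.48-fold with VD3VPA (log2 0.72, 0.76 and 0.79, SE 0.061, adjusted p = 1.43e-06, 2.14e-06 and 5.42e-07, limma). NR4A2, under the filter, averaged 0.676 ± 0.0908 FPKM with VD3, 0.35 ± 0.0776 with VPA, 1.01 ± 0.0286 with VD3VPA and 0.571 ± 0.00466 in Control, and its VPA libraries lay below and its VD3VPA libraries above all others. In the fit with no filter it fell with VPA (adjusted p = 0.0244) and rose with VD3VPA (adjusted p = 0.00101). NR4A3 had 47 fragments with VD3, 48 with VPA, 67 with VD3VPA and 12 in Control. Of 10 tested immediate early genes, 6 rose and 0 fell with VD3, and 5 rose and 1 fell both with VPA and with VD3VPA, so that 60%, 60% and 60% passed, against 62.5%, 52.7% and 64.2% of all genes tested. JUNB averaged 63.5 ± 4.23 FPKM with VD3 and 66.0 ± 2.46 with VD3VPA, against 29.4 ± 3.11 in Control.

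NR5A2 (LRH-1, chr1:200027602-200177424), known for intestinal crypt renewal and bile acid synthesis, was at 5.48, 5.34 and 5.87 FPKM with VD3, at 2.68, 2.23 and 2.22 with VPA, at 5.95, 6.18 and 5.59 with VD3VPA and at 3.70, 3.70 and 3.92 in Control. The libraries with VD3 were all above Control and those of VPA alone all below it. NR5A2 rose 1.47-fold with VD3 (log2 0.46, SE 0.059, adjusted p = 3.81e-05, limma), fell 1.58-fold with VPA (log2 -0.50, adjusted p = 3.45e-05) and rose 1.57-fold with VD3VPA (log2 0.53, adjusted p = 9.75e-06). Of 6 tested genes listed as NR5A2 targets, 2 rose and 3 fell with VD3, 3 rose and 1 fell with VPA, and 2 rose and 3 fell with VD3VPA, so that 83.3%, 66.7% and 83.3% passed, against 62.5%, 52.7% and 64.2% of all genes tested. NR0B2 (SHP), the small corepressor that binds NR5A2, averaged 4.80 ± 0.0568 FPKM with VD3, 3.38 ± 0.239 with VPA, 4.79 ± 0.262 with VD3VPA and 6.998 ± 0.891 in Control.

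NR6A1, the germ cell nuclear factor, was at 1.42, 1.5 and 1.2 FPKM with VD3, at 1.16, 0.935 and 0.985 with VPA, at 1.48, 1.59 and 1.4 with VD3VPA and at 0.746, 0.741 and 0.723 in Control. Every treated library was above every Control library, and the rise was 1.86-fold with VD3, 1.39-fold with VPA and 2.02-fold with VD3VPA (log2 0.45, 0.22 and 0.52, SE 0.066, adjusted p = 0.000107, 0.0147 and 2.88e-05, limma). NR0B1 (DAX1), which lacks the usual DNA-binding domain, had 26 fragments with VD3, 16 with VPA, 5 with VD3VPA and 68 in Control. NR5A1, the steroidogenic factor of adrenal and gonad, had 7 fragments in all.

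The 16 members below the filter were also read in the fit with no filter, over 36483 genes. With VD3VPA, 6 of them passed against Control, with NR4A2, NR3C2, NR4A3 and NR2E1 higher and ESRRG and NR0B1 lower, against 26.8% of all genes (13.4% higher and 13.3% lower). Against Control, 1 passed with VD3 (ESRRG, lower) and 2 with VPA (NR4A2 and NR0B1, lower), against 24.6% and 19.2% of all genes (12.1% and 8.49% lower, 12.5% and 10.7% higher). NR4A2, NR3C2 and NR2E1 were higher in VD3VPA than in VD3, where 11.4% of all genes passed (5.94% higher and 5.45% lower). The same 3 were higher and ESRRG lower in VD3VPA than in VPA, where 25.9% passed (12.6% higher and 13.3% lower). The interaction passed for NR4A2, at 0.49, and NR2E1, at 0.15, against 14.7% of all genes (6.53% above 0 and 8.21% below).

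Coregulators, which nuclear receptors recruit to change chromatin, are set here beside all genes tested, of which 62.5%, 52.7% and 64.2% passed. Of 16 tested coactivators, 1 rose and 6 fell with VD3, 1 rose and 2 fell with VPA, and 1 rose and 6 fell with VD3VPA. PRMT1, an arginine methyltransferase, averaged 11.4 ± 0.413 FPKM with VD3, 15.0 ± 0.335 with VPA, 13.4 ± 0.108 with VD3VPA and 25.1 ± 4.04 in Control. Of 14 tested corepressors, 3 rose and 3 fell with VD3, 4 rose and 4 fell with VPA, and 4 rose and 5 fell with VD3VPA. BCL6, a repressor that recruits them, averaged 4.99 ± 0.430 FPKM with VD3 and 5.63 ± 0.280 with VD3VPA, against 2.49 ± 0.264 in Control.

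The effect of each compound was also read in the presence of the other, in a comparison that shares no library with that of the same compound alone against Control. With VD3VPA against VPA, 24 of the 27 members passed, 14 higher and 10 lower, against 63.3% of all genes (28.6% higher and 34.7% lower). Between this comparison and VD3 against Control, 11 members were higher and 7 lower in both, which is 66.7% of the 27, against 39.0% of all genes that passed in the same direction in both. Across the 27 members the log2 changes of the 2 comparisons had a Pearson r of 0.824, against 0.72 across all 12578 genes. This describes genes of the same 12 libraries, which are not independent replicates. PPARD and RARA passed in both with opposite sign, at -0.10 and 0.36 in VD3VPA against VPA and 0.27 and -0.16 in VD3 against Control, and the first of these was lost in 17 of 23 other settings.

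With VD3VPA against VD3, 10 members passed, 5 higher and 5 lower, against 34.7% of all genes (17.5% higher and 17.2% lower). NR2F6, NR2F2 and PPARA were higher and HNF4A, THRB, PPARG and RARB lower both here and in VPA against Control. These are 25.9% of the 27, against 12.8% of all genes that passed in the same direction in both. RARB averaged 0.464 FPKM with VD3VPA and 1.03 with VD3, a fall of 2.22-fold (log2 -0.47, SE 0.072, adjusted p = 0.000577, limma). The log2 changes of the 27 members had a Pearson r of 0.573 between these comparisons, against 0.201 across all genes tested, again as a description.

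The interaction, the log2 change with both compounds minus the sum of the single changes, passed for 11 of the 27 members, 4 above 0 and 7 below, against 44.3% of all genes tested (19.0% above and 25.3% below). The split was 7 above and 4 below with libraries scaled to their own totals, 6 and 6 with equal FPKM sums and 5 and 5 with quantiles. Own totals moved the median interaction of all genes to 0.11, against -0.01. With own totals the calls for RXRA, NR1H3 and NR1I3 were lost, and in no alternative did a member's called interaction change sign. It was 0.57 for NR5A2 (SE 0.084, adjusted p = 0.000275, limma), whose change between VD3VPA and VPA was 1.03, against 0.46 between VD3 and Control. It was -0.69 for NR4A1 (SE 0.087, adjusted p = 0.000109), which changed by 0.03 between VD3VPA and VPA and by 0.72 between VD3 and Control. NR1H2 and PPARD followed the NR4A1 pattern, at -0.37 and -0.36, with a rise under either compound and no larger rise under both. NR2E3, THRB and PPARA changed by like amounts with VD3 in both settings, and their interactions of -0.04, -0.03 and 0.00 did not pass (SE 0.169, 0.104 and 0.119).

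**Figure D4:**
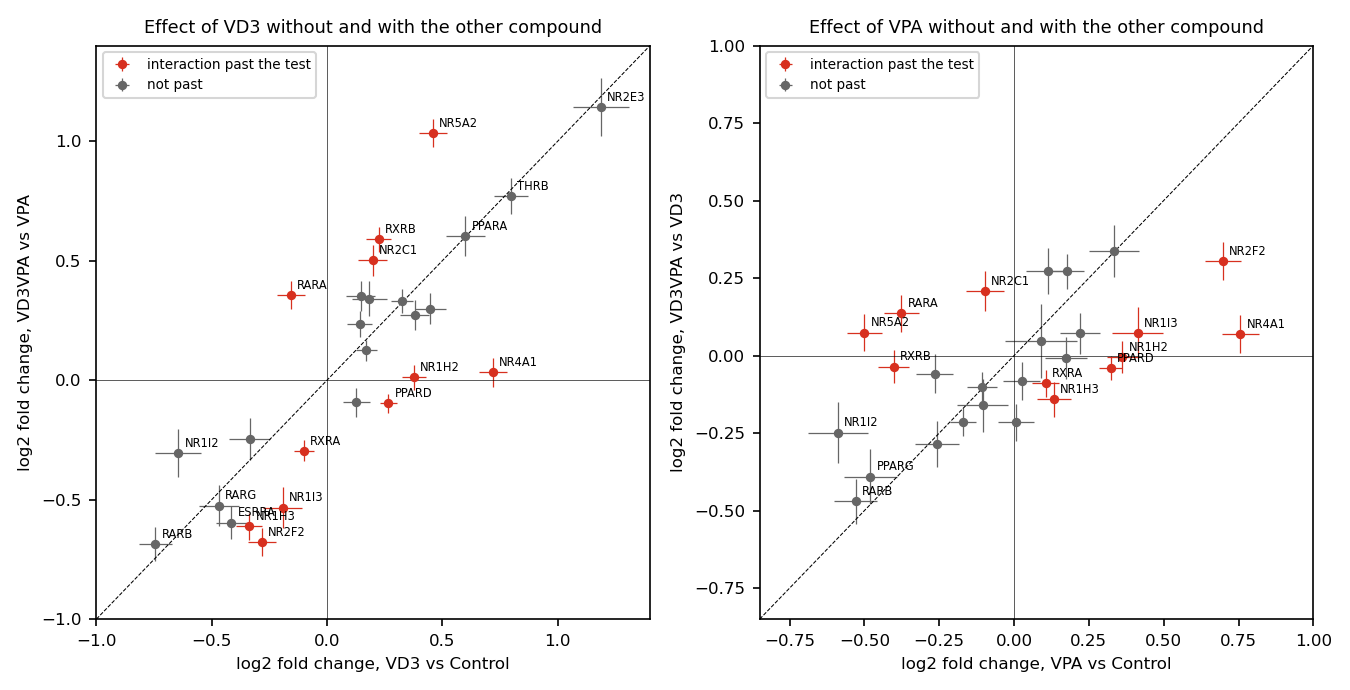
Log2 fold change of the 27 members with SE bars for VD3 (left: VD3VPA against VPA on the vertical axis, VD3 against Control on the horizontal) and for VPA (right: VD3VPA against VD3 and VPA against Control). Red points have an interaction with an adjusted p under 0.05, and NR5A2 lies above and NR4A1 below the dashed line of equal change in the left panel, with interactions of 0.57 and -0.69.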

How the data were processed

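The authors deposited 1 table of FPKM per gene and library together with gene lengths, per the file headers. HISAT2 2.0.5, DESeq2 1.20.0, featureCounts 1.5.0-p3 and GRCh38.p13 appear in the submitters' processing notes. The roles of these tools and the strand setting could not be read from the sources used here. FPKM times gene length, divided by the value of 1 fragment estimated for each library, gave whole fragments for 100% of values within 0.01, and these served for depth and for checks. The scale of the deposited FPKM in each library was proportional, within 2.4e-06%, to the median-of-ratios size factor of those fragments, so changes are relative to size factors and the alternative of own totals departs from them. Changes were tested on log2(FPKM + 1) for the 12578 genes that reached 1 FPKM in 3 or more libraries, with limma 3.58.1 (R 4.3.3), a mean per group and a trended prior, on 8 residual degrees of freedom. P-values were adjusted by Benjamini-Hochberg within each of 6 comparisons, and an adjusted p under 0.05 counted as passed. The procedure was tested on simulated fragments with known changes. Count models were used as alternatives at most (voom on the recovered fragments), because the deposited unit is FPKM. Figures used Python 3.11.15 and matplotlib 3.10.9.

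The members and lists were chosen with earlier results of these data known. Values in every library are given for members that passed with a change of at least 1.5-fold in a comparison with Control or an interaction of at least 0.58, and for RXRA, HNF4A, PPARA, NR1I2 and NR3C1. In each list up to 3 genes with the largest changes could be named. Genes with exon overlap were found in GENCODE release 29, whose start and end match the table for all 43 members. Marker genes named as a check of the label, genes that overlap a member and the mesenchymal and neural markers were picked after their values were seen. No library was a copy of another: between replicates, chi-square divided by the number of genes was 3.4 to 17.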

Additional observations from a re-analysis of the deposited data

Results flagged for a closer look

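The effect of one compound differed with the other present, by the test of the interaction in limma (Benjamini-Hochberg over 12578 genes), for 11 of the 27 tested members (40.7%), against 44.3% of all genes, so the share is near that background. The interaction was 0.57 for NR5A2, 0.51 for RARA, 0.37 for RXRB and 0.30 for NR2C1 on the log2 scale. It was -0.69 for NR4A1, -0.39 for NR2F2, -0.37 for NR1H2, -0.36 for PPARD, -0.34 for NR1I3, -0.27 for NR1H3 and -0.19 for RXRA. The calls for NR1I3 and RXRA were lost in 10 of 18 and 9 of 22 other settings. RXRB and NR1I3 overlap SLC39A7 and TOMM40L, whose own interactions were 0.49 and -0.34, and their part was not tested.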

How the results depend on the processing

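The number of members that passed was 22, 17, 21, 10, 24 and 11 for VD3, VPA and VD3VPA against Control, VD3VPA against VD3, VD3VPA against VPA and the interaction. With a mean of at least 5 FPKM required, 11 members were left in the test and these counts were 10, 9, 9, 5, 9 and 6, as fewer genes were tested. Leaving out 1 library gave 18 to 23, 15 to 19, 20 to 22, 7 to 11, 19 to 23 and 9 to 13. Over 23 other settings no result of a member that passed changed sign. With the replicate number as a block the counts were 22, 17, 21, 10, 23 and 11. The block lost 2 of 162 member results, NR2F6 with VD3 and PPARD in VD3VPA against VPA, and gained 1, NR2C2 with VD3. Same-numbered libraries deviated together weakly at most (r of -0.0831 to 0.152 over 18 pairs, 3 of them over 0.1). Of the 12 libraries, 7 correlated best with their own number, which was not set against a chance level, so a weak pairing is not excluded. Scaling libraries to their own totals lost 10 member results and gained 7, the most of any single setting that keeps all libraries. Genes near 1 FPKM are limited by the filter, and those with a few fragments by depth.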
